A study of Drosophila melanogaster with 21 samples.

Results

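The cytosolic ribosomal protein genes of the fly were followed across single heads of Drosophila melanogaster that differed in feeding and in appetitive training. Members were all rows of the deposited table whose current FlyBase symbol starts with RpL (large subunit, the stalk genes RpLP0, RpLP1 and RpLP2 included) or RpS (small subunit). The table held 87 such symbols, and 79 of them were kept, with 5 or more of the 21 heads at 1 RPKM (reads per kilobase of exon, scaled to the size of the library) or higher. Those 79 comprised 48 RpL and 31 RpS genes, out of 10501 genes of the whole table that met the same filter. The genes RpL19, RpL27A, RpL31, RpS10b and RpS12 are not analysed here.

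Every cytosolic ribosome is built from nearly equal amounts of its proteins on a scaffold of ribosomal RNA, so the genes are among the most strongly transcribed of any animal cell and their mRNA levels tend to move as a block. Ribosomal proteins are imported into the nucleus and joined to ribosomal RNA in the nucleolus with the help of assembly factors, some of which descend from ribosomal proteins and carry their names with the ending "-like". In flies, production of ribosomes depends on nutrition through the TOR kinase and the transcription factor Myc, and heterozygous loss of many of these genes gives the Minute phenotype of slow growth and thin bristles.

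Each library was made from polyadenylated RNA of 1 head of a female fly kept at 25 °C, and each head is 1 replicate. The 5 starved_trained_4hr and 6 starved_trained_1hr heads came from flies that were food-deprived, conditioned with sucrose and collected 4 h or 1 h after training. The 5 starved_naive heads came from food-deprived flies that were not trained, and the 5 naive heads from flies that were neither deprived nor trained. The sources used here name no transgene, strain or age for these flies, no group was both fed and trained, and odor, sucrose and time since deprivation began changed together in the trained flies. Whole reads on genes, recovered from the RPKM steps, ran from 36019296 to 67792568 per head, and a kept member had between 271 and 166156 reads in any head.

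Markers of neurons, glia and photoreceptors were found in all 21 heads. Those of photoreceptors (7 genes) summed to 21552 to 23693 RPKM in starved_trained_4hr heads and 19607 to 22385 RPKM in starved_trained_1hr heads. The sums were 15179 to 20208 RPKM in starved_naive heads and 14450 to 19370 RPKM in naive heads. Every trained head thus lay above every naive head, at 1 h by a narrow margin. Of all 10501 tested genes, 312 at 1 h and 437 at 4 h also had every head above every naive head. Markers of the adult fat body, taken as a sum, separated naive heads from all others. They were apolpp, Lsp2, Fbp1 and the yolk protein genes Yp1, Yp2 and Yp3. A sum gives most weight to its most abundant genes, and levels of single markers by group are not given here. The summed level of 6 fat body markers was 1601 to 8969 RPKM in starved_trained_4hr heads, 575 to 21248 RPKM in starved_trained_1hr heads, 121 to 11248 RPKM in starved_naive heads and 29016 to 64097 RPKM in naive heads. Between 10.5 and 13.5% of reads fell on the top 10 genes in starved and trained heads, against 15.6 to 19.5% in naive heads. Since these are whole heads, fewer cells of a type and less RNA per cell cannot be told apart. 2 libraries stood apart, starved_naive replicate 3 with the lowest fat body sum and naive replicate 2, where small structural RNAs made up 4.09% of reads (0.108 to 0.430% in the starved and trained heads), and the results below are given with and without them where they decide a value.

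Ribosomal protein mRNAs were abundant in every head. Apart from 3 genes with the "-like" ending, the 76 remaining members had mean levels of 156 to 2143 RPKM over the 21 heads (median 775), a 13.7-fold range, and all 76 stood among the 500 most highly expressed genes by RPKM. 63 of them averaged above 500 RPKM. The highest mean levels belonged to RpL41, which encodes a very short basic peptide (2143 RPKM, rank 16 of 10501), RpS27A, a ubiquitin fused to a small-subunit protein (1616 RPKM, rank 20), and RpL39 (1268 RPKM, rank 25). The lowest were RpLP0-like (15.7 RPKM, rank 4310), RpL7-like (21.6 RPKM, rank 3229) and RpL34a (156 RPKM, rank 449).

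The 79 genes lie on every major chromosome arm, with 17 on 2L, 17 on 2R, 13 on 3L, 18 on 3R, 13 on X and RpS3A alone on chromosome 4. In the Ensembl annotation, 50 share no exon base with another gene and 5 share over 25% of their exon bases: RpL7-like, RpS9, RpL22, RpL23A and RpL30. The RpL7-like value cannot be separated from that of CG34164, since 1771 of its 1793 exon bases are common to both and reads were not assigned by strand.

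Summed over the 79 members, the level was 59054, 60633, 65152, 63947 and 60486 RPKM in the starved_trained_4hr heads and 54033 to 69437 RPKM (median 61800) in the 6 starved_trained_1hr heads. It was 67726, 59103, 25436, 46777 and 63490 RPKM in the starved_naive heads and 48057, 79138, 61562, 57720 and 66378 RPKM in the naive heads. The lowest and the highest head of the series were both untrained, starved_naive replicate 3 and naive replicate 2. The SD was 2572 RPKM around a mean of 61854 RPKM at 4 h after training (n = 5) and 5757 around 62382 RPKM at 1 h (n = 6), against 17040 around 52506 RPKM in starved_naive heads (n = 5) and 11448 around 62571 RPKM in naive heads (n = 5). Without the 2 heads named it was 9045 around 59274 RPKM in starved_naive and 7769 around 58429 RPKM in naive heads (n = 4 each).

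**Figure D1:**
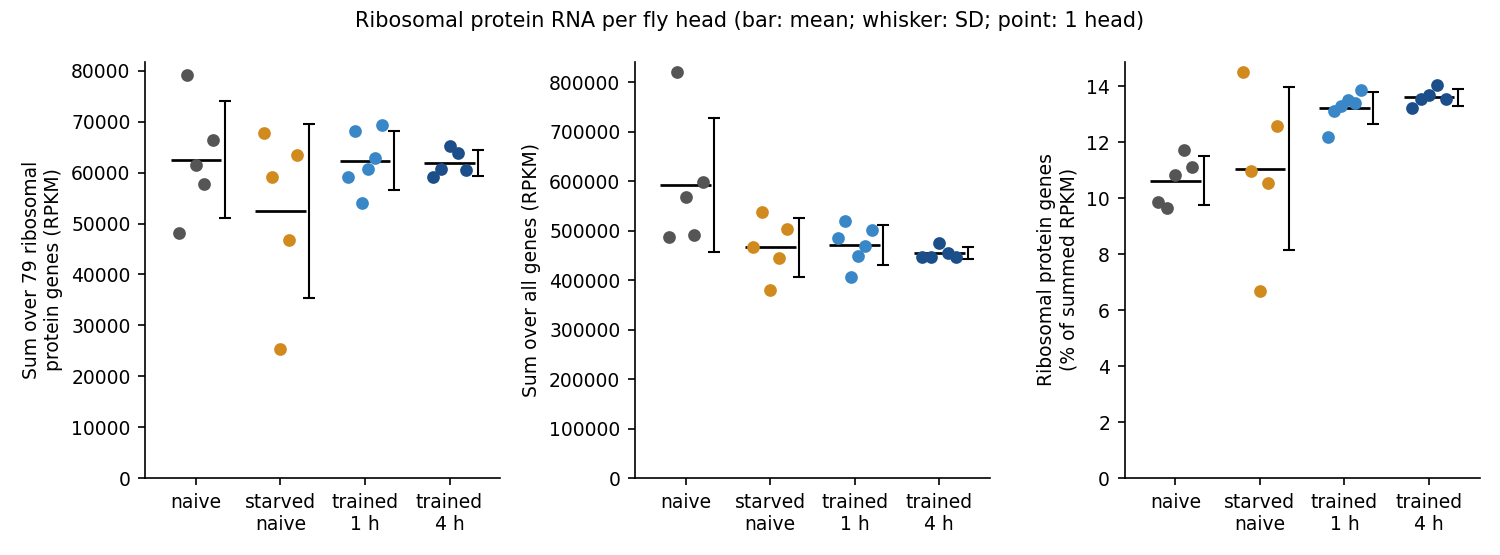
Left, summed RPKM of the 79 ribosomal protein genes; middle, summed RPKM of all genes; right, the first as a percentage of the second, for each fly head by group. Points are single heads, bars group means and whiskers SD; the starved_naive head at 25436 RPKM lies below all others on the left, and the naive head at 820048 RPKM above all others in the middle.

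The members moved together from head to head. All members within 1 head share its library depth and scaling factor, which differ between heads and can add to such a correlation. Across the 21 heads the median Pearson correlation of log2(RPKM + 1) was 0.93 over 3081 pairs of members, and the first principal component carried 90.5% of their variance. In 76 of 79 members the correlation with the mean of the others was above 0.8, and it reached 0.99 for RpL12, a protein of the stalk base. RpL24-like (0.19), RpLP0-like (0.61) and RpL7-like (0.64) were the exceptions. These are relatives of the yeast assembly factors Rlp24, Mrt4 and Rlp7. Of these, Rlp24 and Mrt4 hold a place on the immature large subunit that a ribosomal protein later fills. The ratio of summed RpL to summed RpS levels stayed between 1.54 and 1.63 in all 21 heads, so that large- and small-subunit genes kept their proportion in high and low heads alike.

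Starved_naive replicate 3 had the lowest level of all 21 heads in each of the 76 members without the "-like" ending. Its level relative to the median of the other 4 starved_naive heads was 0.416 (median of the 76 members, range 0.321 to 0.601), and 68 of the 76 were under 0.5, a ratio that 7.15% of all tested genes fell below. The same ratio was 0.861 for RpL24-like, 0.740 for RpL7-like and 0.724 for RpLP0-like. RpL32, long used in flies as a reference transcript in quantitative PCR under the name rp49, had 258 RPKM in that head and 785, 636, 518 and 740 RPKM in the other starved_naive heads. In the same head the fat body marker Yp1, a yolk protein, had 41.6 RPKM, against 523 to 4663 RPKM in the other 4, and the part of cell composition in its ribosomal protein level was not tested. At the other end, 54 of the 76 members were highest in naive replicate 2.

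**Figure D2:**
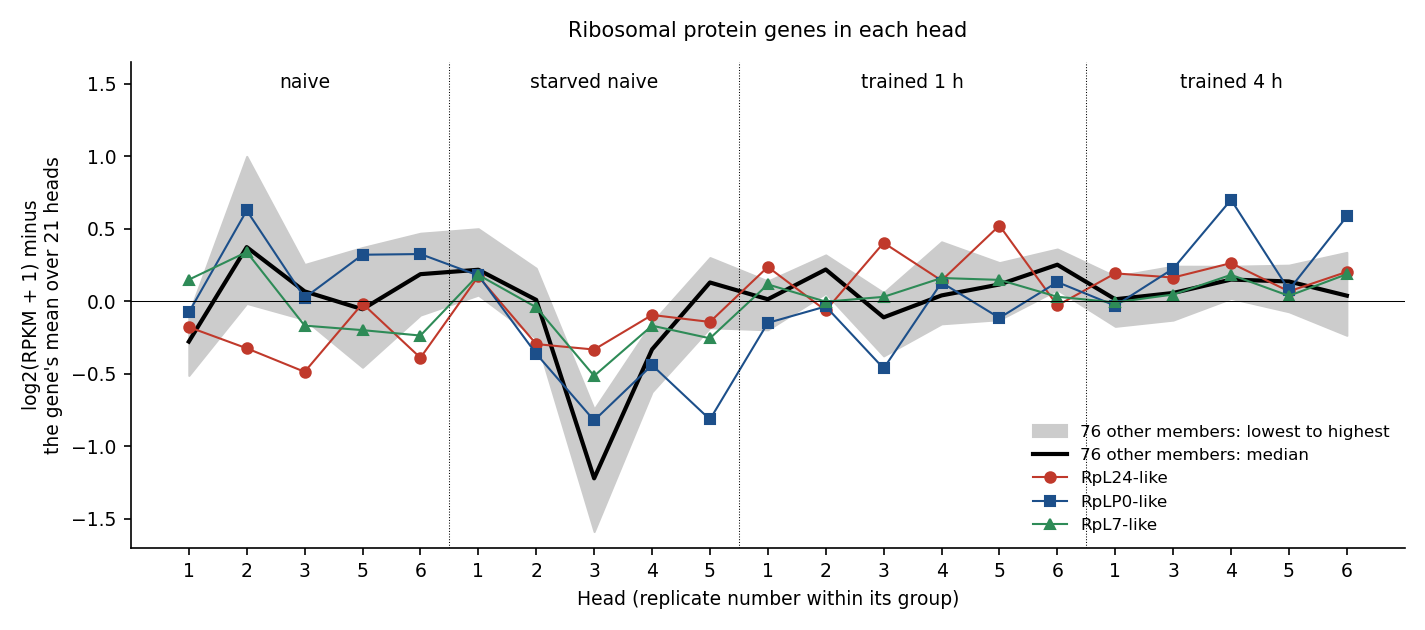
Level of the ribosomal protein genes in each of the 21 heads, as log2(RPKM + 1) minus the gene's mean over all heads, in the order naive, starved_naive, trained 1 h and trained 4 h. The grey band spans 76 members and the black line is their median; the 3 coloured lines are RpL24-like, RpLP0-like and RpL7-like, which lie above the band's median in starved_naive replicate 3.

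Several members are duplicated genes, and the heads used the copies unequally. RpL34a made up 24.8 to 27.3% of the summed RPKM of RpL34a and RpL34b in starved_trained_4hr heads, 24.7 to 29.5% in starved_trained_1hr heads, 25.7 to 32.4% in starved_naive heads and 29.2 to 31.5% in naive heads. All 5 starved_trained_4hr heads thus lay below all 5 naive heads. By level, 500 of all 10501 tested genes had every starved_trained_4hr head below every naive head. RpLP0-like, a relative of the assembly factor Mrt4 rather than a second copy, was paired with RpLP0. Its share of their sum was also lower in all starved_trained_1hr heads (1.70 to 2.05%) than in all naive heads (2.32 to 3.09%). By level, 184 of all 10501 tested genes had every starved_trained_1hr head below every naive head. In every other pair and comparison the shares overlapped. RpS15Ab gave 20.5 to 25.2% of its pair with RpS15Aa over the 21 heads. RpS14a gave 53.1 to 55.9% of its pair with RpS14b, a neighbouring near-identical copy, so that the split of reads between them is uncertain.

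The 8 members that failed the filter are copies of other ribosomal protein genes, some of them known for their use in the germ line. RpL10Aa, RpL22-like, RpL37-2 and RpS28a each gave at most 0.0319% of the RPKM of the pair with RpL10Ab, RpL22, RpL37-1 or RpS28b in any head. RpS28-like did not exceed 0.0627 RPKM and RpS10a did not exceed 0.673 RPKM. RpS5b, the ovary-enriched copy of RpS5a, had 0.241, 1.29, 0.187, 0.377 and 46.9 RPKM in starved_trained_4hr heads, 0.193 to 5.92 RPKM (median 0.369) in starved_trained_1hr heads, 0.0725 to 0.314 RPKM in starved_naive heads and 0.0962 to 0.47 RPKM in naive heads. RpS19b was at or below 0.0948 RPKM in 20 heads and at 5.30 RPKM in naive replicate 2. The 2 heads with RpS5b above 5 RPKM were also those with the highest levels of osk, which is needed to form the germ plasm (6.14 RPKM in starved_trained_4hr replicate 6 and 1.03 RPKM in starved_trained_1hr replicate 2, at most 0.223 RPKM elsewhere), and of Vm26Ab, an egg-shell protein (5.76 and 8.95 RPKM, at most 0.223 RPKM elsewhere). The eggshell gene Cp36 stayed at or below 0.0438 RPKM in all heads, and the part of ovary RNA in these values was not tested.

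The comparison of starved_naive with naive heads sets food-deprived against fed flies, both untrained. The labels do not state whether collection time and handling matched. No ribosomal protein gene was called: 0 of 79 passed limma's test at an adjusted p of 0.05 over all genes, where 1.51% of all tested genes passed, and 3 members had an unadjusted p below 0.05. limma-voom on the recovered reads also called 0. Fold changes leaned downward, with 1 of 79 positive and a median log2 fold change of -0.32 (fold 0.804), against -0.0015 over all genes. RpLP0-like had the lowest p, with 17.2, 11.5, 8.11, 10.9 and 8.15 RPKM in starved_naive heads against 14.3, 23.8, 15.4, 19.1 and 19.2 RPKM in naive heads (log2 fold change -0.70 ± 0.188 SE, limma adjusted p = 0.0627). The groups overlapped only through starved_naive replicate 1, and without that head or without naive replicate 1 the gene passed (limma adjusted p = 0.0170 and 0.0295).

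RpL15, a large-subunit core protein, had the next lowest p, with 872, 849, 429, 730 and 918 RPKM in starved_naive heads against 756, 1240, 895, 921 and 980 RPKM in naive heads (log2 fold change -0.37 ± 0.169 SE, limma adjusted p = 0.243). The groups overlapped, and the lowest head was again starved_naive replicate 3. Without starved_naive replicate 3 the median over the 79 members was -0.066, and without it and naive replicate 2 it was 0.019. These 2 heads had the lowest and highest summed levels of the series, so leaving them out was bound to raise the median. It was -0.41 without starved_naive replicate 1 and -0.38 without naive replicate 1.

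The comparisons of trained with naive heads combine deprivation and training. RpL24-like, the relative of yeast Rlp24, which in that species is exchanged for RpL24 during large-subunit assembly, was the only member called with the deposited scaling (gene FBgn0037899, chromosome 3R, 11430740 to 11431582, minus strand). It had 227, 223, 239, 208 and 229 RPKM in starved_trained_4hr heads, 190 to 286 RPKM (median 227) in starved_trained_1hr heads, 224, 162, 157, 186 and 180 RPKM in starved_naive heads and 175, 158, 141, 196 and 151 RPKM in naive heads. Every 4 h head lay above every naive head, as did 4.16% of all tested genes, while 2 of the 6 heads at 1 h overlapped the naive range.

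In starved_trained_1hr heads RpL24-like rose relative to naive heads by 0.48 ± 0.114 SE on the log2 scale (1.4-fold, limma adjusted p = 0.0182). It was 1 of 79 members called, against 8.98% of all tested genes in either direction and 5.13% in the upward direction. In starved_trained_4hr heads the rise was 0.46 ± 0.119 SE (1.37-fold, limma adjusted p = 0.0426), again as 1 of 79 members, against 3.40% of all genes in either direction and 1.70% upward. Both comparisons share the 5 naive heads. The 4 h call was close to the threshold: it was lost in 8 of 10 fits that left out 1 head (limma adjusted p up to 0.112, log2 fold change 0.40 to 0.52), kept only without naive replicate 1 or 5. The 1 h call was lost without naive replicate 3 or 6 (limma adjusted p = 0.0518 and 0.0541).

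RpL24, the ribosomal protein whose place it holds, had 369, 419, 434, 439 and 430 RPKM in starved_trained_4hr heads, 357 to 459 RPKM in starved_trained_1hr heads and 323, 507, 363, 364 and 436 RPKM in naive heads, which overlapped. The other 78 members centred near 0 with the deposited scaling. The median log2 fold change over all 79 was 0.041 in starved_trained_1hr against naive heads (52 of 79 positive, all genes -0.014) and 0.028 in starved_trained_4hr against naive heads (46 of 79 positive, all genes -0.0076). RpL32 had 681 to 747 RPKM in starved_trained_4hr heads, 619 to 801 RPKM in starved_trained_1hr heads and 523 to 804 RPKM in naive heads.

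**Figure D3:**
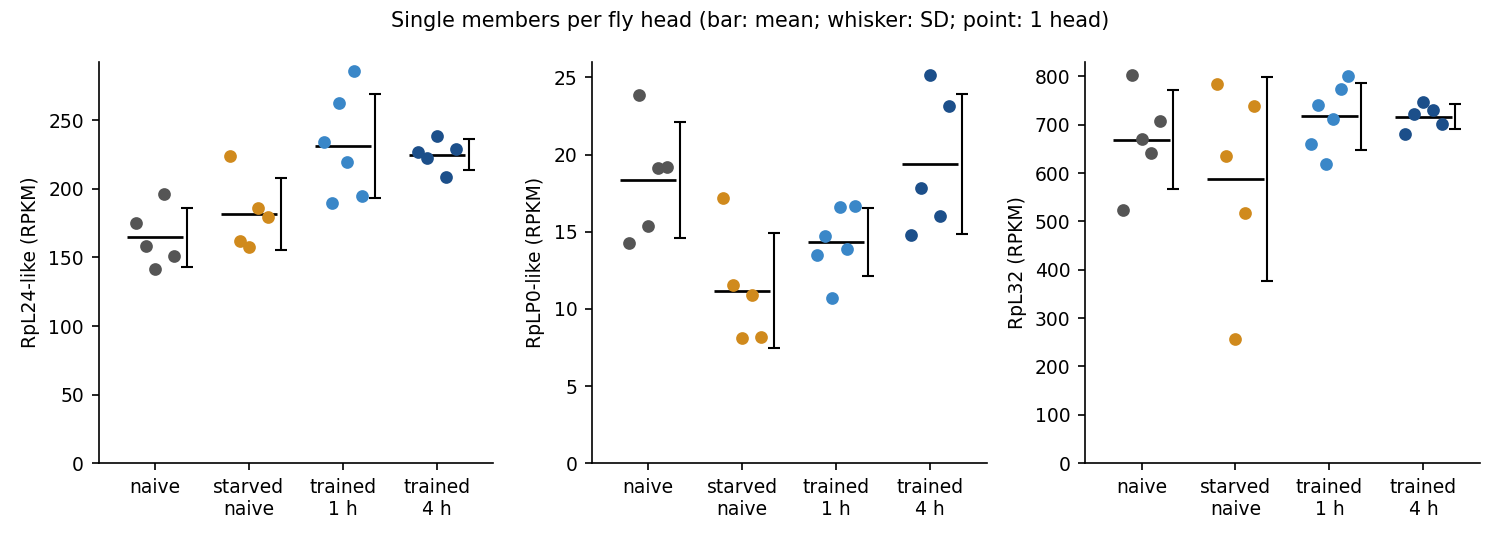
RPKM of RpL24-like, RpLP0-like and RpL32 in each fly head by group; points are single heads, bars means and whiskers SD. RpL24-like lies at 208 to 239 RPKM in all 5 trained 4 h heads, above the 5 naive heads; RpLP0-like reaches its lowest levels, near 8 RPKM, in 2 starved_naive heads; RpL32 has 1 starved_naive head at 258 RPKM.

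The number of ribosomal protein genes called between trained and naive heads depended on how the heads were scaled. With the deposited scaling, the other tested genes were already level between groups by their median ratio to the mean over heads. This ratio averaged 1.00 in naive, 0.999 in starved_naive, 0.996 in starved_trained_1hr and 0.997 in starved_trained_4hr heads. Per the deposited values, the RPKM of all genes summed to 454376 ± 12408 in starved_trained_4hr heads (SD, n = 5), 471787 ± 40061 in starved_trained_1hr heads (SD, n = 6), 466893 ± 59858 in starved_naive heads (SD, n = 5) and 593296 ± 135397 in naive heads (SD, n = 5). The 5 starved_trained_4hr heads were all below the 5 naive heads (exact two-sided permutation test, p = 0.00794, the smallest this design can give, adjusted p = 0.0476 over 6 comparisons). For starved_trained_1hr against naive heads the exact p was 0.0390 (adjusted 0.117), and for starved_naive against naive heads it was 0.0635 (adjusted 0.127). Among the starved and trained groups the adjusted exact p was 0.578 or higher.

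As a share of this sum, the 79 members took 13.2 to 14.0% in starved_trained_4hr heads, 12.2 to 13.9% in starved_trained_1hr heads, 6.67 to 14.5% in starved_naive heads and 9.65 to 11.7% in naive heads. By this measure every trained head lay above every naive head, while the starved_naive heads reached below and above both. As a share of the reads on genes, the members took 5.80 to 6.19% in starved_trained_4hr heads, 5.38 to 6.27% in starved_trained_1hr heads, 2.66 to 6.45% in starved_naive heads and 4.37 to 5.80% in naive heads, and both trained groups then overlapped the naive group. With small structural RNA genes left out of the sum, the share was 13.3 to 14.2% at 4 h, 12.2 to 14.0% at 1 h and 9.92 to 12.5% in naive heads, and the 1 h and naive ranges then met, through naive replicate 2. The fat body sum, at 29016 RPKM or more in naive heads and 21248 RPKM or less in all others, moved with this difference. So did the photoreceptor sum, which was higher in every trained head than in every naive head. The part of either in the difference was not tested.

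When all heads were rescaled to the same summed RPKM, 33 of 79 members rose in starved_trained_4hr against naive heads and 16 rose in starved_trained_1hr against naive heads. Under that scaling 30.0% and 19.6% of all tested genes also rose, 96.1% and 95.1% of the calls were upward, and the median log2 fold change was 0.39 over the members and 0.30 over all genes at 4 h, and 0.35 and 0.25 at 1 h. The called members came from both subunits. At 4 h they included RpL26 (0.54 ± 0.165 SE, limma adjusted p = 0.0287), RpS2 (0.51 ± 0.181 SE, limma adjusted p = 0.0421) and RpS19a (0.51 ± 0.191 SE, limma adjusted p = 0.0487), the 3 highest after RpL24-like, named after their values were seen.

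In starved_naive against naive heads the same rescaling called 0 members by limma (2 at an unadjusted p below 0.05, 8.14% of all genes called), and the median was 0.013 over members against 0.28 over all genes. Relative to the shift of all genes, the median of the members was offset by 0.084 at 4 h, 0.097 at 1 h and -0.27 in starved_naive heads on the log2 scale. With the deposited scaling the corresponding offsets were 0.035, 0.055 and -0.31. Each scaling multiplies all genes of a head by the same factor. The offset can therefore differ between scalings only through the 1 added before the log, and its sign across the 6 scalings is no check. When heads were left out, the sign of the offset changed. Without naive replicate 1 it was -0.053 at 4 h and -0.033 at 1 h with the deposited scaling, and without starved_naive replicate 3 and naive replicate 2 it was 0.014 in starved_naive heads.

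Intermediate choices gave intermediate counts. Rescaling to the same summed RPKM without small structural RNA genes called 11 members at 4 h and 5 at 1 h, all upward (22.2% and 14.7% of all genes rose), and the 5 were RpL24-like, RpL24, RpL34b, RpL28 and RpL26. Rescaling to the same number of reads on genes called 2 at 4 h, RpL24-like and RpL7-like, and 1 at 1 h, RpL24-like (19.6% and 11.9% of all genes rose). Rescaling by the 75th percentile called RpL24-like alone at both times (1.38% of all genes at 4 h and 4.09% at 1 h), as did the median ratio of the other genes (1.50% and 5.09%). Leaving out starved_naive replicate 3 under the equal-sum scaling, which removes that head from the shared estimate of the spread, raised the counts to 69 of 79 at 4 h and 58 of 79 at 1 h, where 37.7% and 26.6% of all genes rose.

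**Figure D4:**
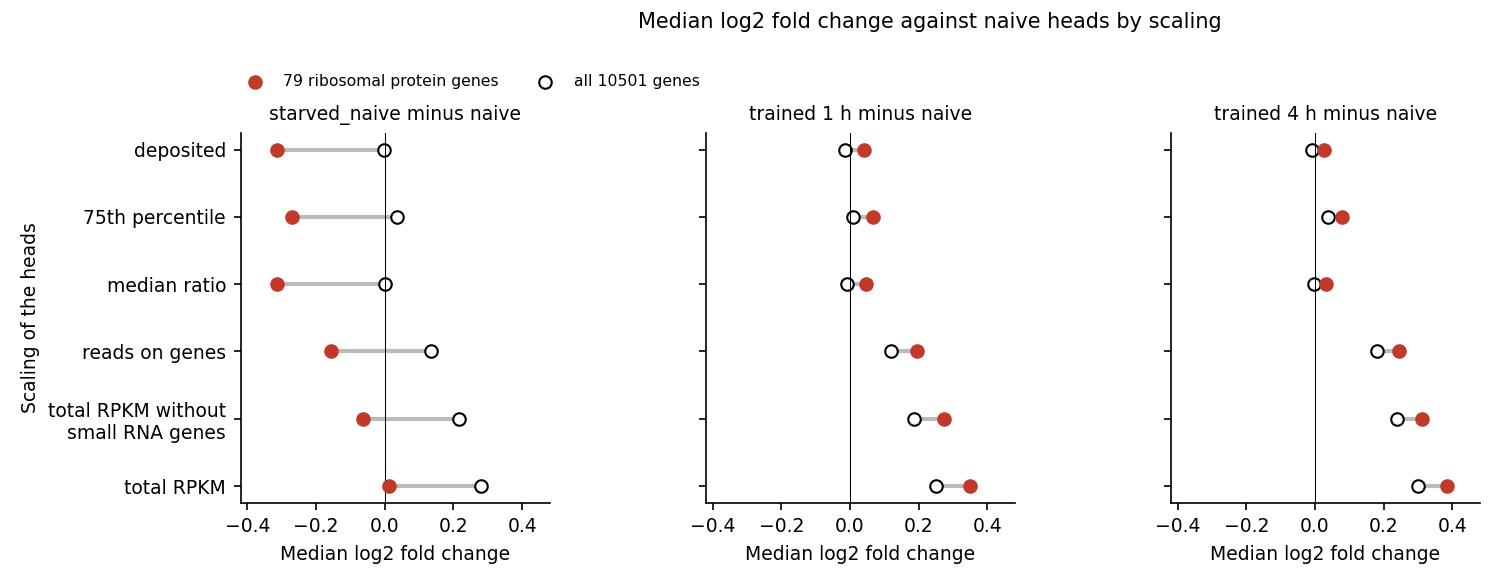
Median log2 fold change against naive heads (x axis) under 6 scalings of the heads (rows) for starved_naive, trained 1 h and trained 4 h heads; filled points are the 79 ribosomal protein genes and open points all 10501 tested genes. Both medians lie furthest to the right with equal summed RPKM, at the bottom, with the members left of all genes in starved_naive heads and right of them in trained heads.

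The comparisons of trained with starved_naive heads set flies that were deprived and then trained with sucrose against flies that were only deprived. In starved_trained_4hr against starved_naive heads, RpLP0-like, the relative of yeast Mrt4, which in that species precedes the stalk protein RpLP0 on the immature large subunit, was the only member called (gene FBgn0033485, chromosome 2R, 10098518 to 10099590, minus strand). It had 14.8, 17.8, 25.1, 16.0 and 23.1 RPKM in starved_trained_4hr heads and 10.7 to 16.6 RPKM (median 14.3) in starved_trained_1hr heads, against 17.2, 11.5, 8.11, 10.9 and 8.15 RPKM in starved_naive heads. The 4 h and starved_naive groups overlapped through starved_naive replicate 1. The rise at 4 h was 0.76 ± 0.188 SE on the log2 scale (1.70-fold, limma adjusted p = 0.0207), and it stood at 0.77 to 0.82 under the other 5 scalings.

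RpLP0-like was 1 of 79 members called, against 6.37% of all tested genes in either direction and 3.62% upward. Without starved_naive replicate 3 it still passed (log2 fold change 0.67, limma adjusted p = 0.0478), as 1 member against 2.62% of all genes upward, and it missed the threshold without starved_trained_4hr replicate 4 or 6 or without starved_naive replicate 5 (limma adjusted p = 0.0672, 0.0681 and 0.0601). Without starved_naive replicate 1, 2 members were called, RpLP0-like (0.92) and RpL24-like (0.39), and 4.41% of all genes rose. The stalk protein RpLP0 had 717, 785, 700, 811 and 614 RPKM in starved_trained_4hr heads against 904, 799, 308, 583 and 737 RPKM in starved_naive heads, which overlapped widely.

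The block as a whole was not tested. All 79 members had positive fold changes in starved_trained_4hr against starved_naive heads, with a median of 0.32 (all genes 0.0016) and 10 members at an unadjusted p below 0.05. In starved_trained_1hr against starved_naive heads all 79 were also positive, with a median of 0.34 (all genes -0.0046), but limma called 0 of 79, where 0.552% of all genes passed. At 1 h 6 members had an unadjusted p below 0.05, and limma-voom called 0. Both comparisons share the 5 starved_naive heads. Without starved_naive replicate 3 the medians were 0.081 at 4 h and 0.10 at 1 h, with 68 and 71 of 79 positive.

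The lowest p at 1 h belonged to RpL24-like, with 190 to 286 RPKM in starved_trained_1hr heads against 157 to 224 RPKM in starved_naive heads (0.34 ± 0.114 SE, limma adjusted p = 0.189). RpL23, a large-subunit protein, had 1069 to 1350 RPKM (median 1235) in starved_trained_1hr heads against 1265, 1096, 522, 839 and 1072 RPKM in starved_naive heads (0.39 ± 0.179 SE, limma adjusted p = 0.344). In both genes the groups overlapped.

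Between the times after training, starved_trained_4hr against starved_trained_1hr heads, limma called 0 of 79 members, where 0.0857% of all genes passed. The median was -0.019 (31 of 79 positive, all genes 0.0003), with 1 member at an unadjusted p below 0.05, and limma-voom called 0. RpLP0-like had the lowest p (0.39 ± 0.180 SE, limma adjusted p = 0.366), followed by RpL22 (-0.078 ± 0.141 SE, limma adjusted p = 0.856). RpL22 had 847, 880, 941, 965 and 742 RPKM in starved_trained_4hr heads against 829 to 960 RPKM in starved_trained_1hr heads.

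Genes of ribosome assembly were called more widely. Of a list of 31 assembly factors, 23 were tested, and 20 of them rose in starved_trained_4hr against starved_naive heads (median 0.71, against 0.0016 over all genes; 3.62% of all genes rose). In the same comparison all 4 h heads were above all starved_naive heads in summed photoreceptor markers and below them in summed blood cell markers (14.1 to 18.8 RPKM against 20.2 to 40.0 RPKM), and the part of cell composition was not tested. The 3 with the lowest p were Ns3, a nucleostemin-family GTPase, Fib (fibrillarin, the methyltransferase of box C/D small nucleolar RNPs) and Nop56, a core protein of the same particles. Fib had 16.1, 24.9, 37.3, 20.5 and 35.1 RPKM in starved_trained_4hr heads and 10.9 to 21.4 RPKM in starved_trained_1hr heads, against 16.0, 7.76, 4.72, 7.56 and 4.78 RPKM in starved_naive heads (4 h against starved_naive, 1.66 ± 0.280 SE, limma adjusted p = 0.00276).

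Nop56 had 18, 24, 33.6, 19.3 and 35.1 RPKM in starved_trained_4hr heads against 15.7, 8.81, 6.18, 10.1 and 5.67 RPKM in starved_naive heads, which did not overlap (1.42 ± 0.249 SE, limma adjusted p = 0.00358). Ns3 had 9.72, 12.4, 13.9, 9.99 and 13 RPKM in starved_trained_4hr heads against 9.42, 5.86, 6.31, 6.46 and 4.89 RPKM in starved_naive heads, again without overlap (0.77 ± 0.114 SE, limma adjusted p = 0.00197). Of all 10501 tested genes, 475 had every starved_trained_4hr head above every starved_naive head. The count of assembly factors that rose was 19 without starved_naive replicate 3 and 18 without starved_trained_4hr replicate 6, the head with the highest RpS5b level. It ranged from 17 to 22 over all alternatives run.

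The same list leaned downward in starved_naive against naive heads, where 5 of 23 fell (median -0.46, 0.952% of all genes fell). They were Mys45A (-0.44 ± 0.105 SE), nop5 (-1.30 ± 0.315 SE), pit (-0.54 ± 0.132 SE) and NHP2 (-0.94 ± 0.230 SE), each at a limma adjusted p of 0.0477, and Nop56 (-1.01 ± 0.249 SE, limma adjusted p = 0.0487). nop5 is a further box C/D protein, pit a DEAD-box helicase, and NHP2 belongs to the H/ACA particles that guide pseudouridylation. These 5 calls were lost without starved_naive replicate 3 and under limma-voom (0 each), with the median at -0.43 and -0.57. In starved_trained_4hr against naive heads 0 of 23 were called with the deposited scaling (6 at an unadjusted p below 0.05, 0 by limma-voom, median 0.30), but 22 were called upward with equal summed RPKM and 12 with equal reads on genes, scalings under which 30.0% and 19.6% of all genes rose. In starved_trained_1hr against starved_naive heads 0 were called, although 21 of 23 had an unadjusted p below 0.05 and the median was 0.48 (0 by limma-voom). In starved_trained_1hr against naive heads 1 of 23 rose, where 5.13% of all genes rose. This was the nucleolar GTPase Non1 (0.60 ± 0.162 SE, limma adjusted p = 0.0294), and the median of the list was -0.12.

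Of 9 tested genes of RNA polymerase I, which transcribes ribosomal RNA, 8 rose in starved_trained_4hr against starved_naive heads (median 0.57; 3.62% of all genes rose), led by Polr1B (0.69 ± 0.132 SE, limma adjusted p = 0.00542), Polr1E (0.81 ± 0.166 SE, limma adjusted p = 0.00758) and Polr1C (0.61 ± 0.127 SE, limma adjusted p = 0.00813). The count depended on single heads: it was 3 without starved_trained_4hr replicate 4 or without replicate 6, 4 without starved_naive replicate 2, and 5 without starved_naive replicate 3 or replicate 5. In starved_naive against naive heads limma called 0 of the 9 (1.51% of all genes), with 7 at an unadjusted p below 0.05, 0 by limma-voom and a median of -0.42.

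**Figure D5:**
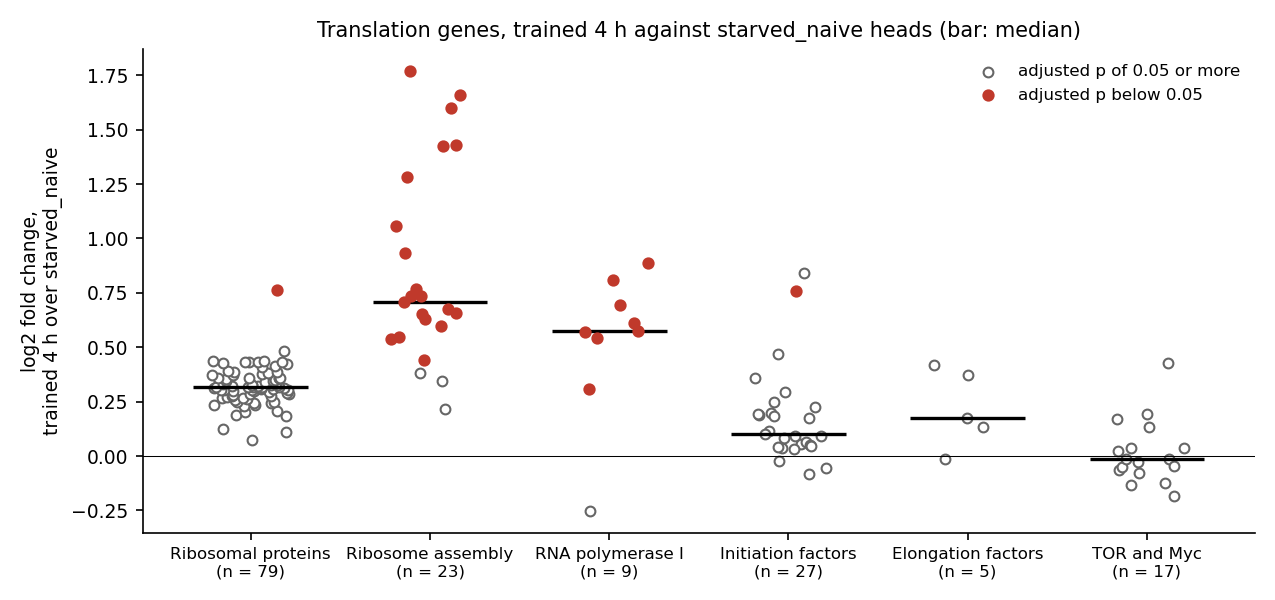
Log2 fold change in trained 4 h over starved_naive heads for the 79 ribosomal protein genes and for lists of ribosome assembly factors (23 genes), RNA polymerase I genes (9), initiation factors (27), elongation factors (5) and TOR and Myc genes (17). Filled points have a limma adjusted p below 0.05 and bars are medians; the bar stands at 0.71 for assembly factors, 0.57 for RNA polymerase I and 0.32 for ribosomal protein genes, where 1 point is filled.

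Of 27 initiation factors, 1 rose in starved_trained_4hr against starved_naive heads, where 3.62% of all genes rose. This was eIF6, which also binds the large subunit during its assembly and keeps the subunits apart. It had 17.9, 19.7, 27.5, 16.9 and 23.1 RPKM in starved_trained_4hr heads against 16.4, 12.0, 9.69, 12.0 and 9.99 RPKM in starved_naive heads (0.76 ± 0.154 SE, limma adjusted p = 0.00730). All 4 h heads were above all starved_naive heads, as in 475 of the 10501 tested genes. In starved_trained_1hr against naive heads, where 8.98% of all genes were called, eIF3f1 (0.34 ± 0.076 SE, limma adjusted p = 0.0134) and eIF1A (0.28 ± 0.083 SE, limma adjusted p = 0.0456) rose and the scaffold eIF4G1 fell (-0.39 ± 0.102 SE, limma adjusted p = 0.0266). eIF3f1 also rose in starved_trained_4hr against naive heads (0.32 ± 0.079 SE, limma adjusted p = 0.0366), where 1.70% of all genes rose. With equal summed RPKM, under which 19.6% of all genes rose at 1 h, 13 initiation factors rose and 0 fell, and eIF4G1 had -0.088 (limma adjusted p = 0.498). It also fell with the 75th percentile and the median ratio, and missed the threshold with equal reads on genes (-0.24, limma adjusted p = 0.0628) and in the fits without naive replicate 2 or 6 or starved_trained_1hr replicate 3 or 5 (limma adjusted p = 0.0529 to 0.0773). The 5 elongation factors tested gave 0 calls in each of the 6 comparisons with the deposited scaling, by limma and by limma-voom, with 0 to 2 at an unadjusted p below 0.05.

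Among 17 genes of TOR and Myc signalling, Rheb, the GTPase that activates TOR complex 1, was called, in starved_trained_1hr against naive heads (0.47 ± 0.124 SE, limma adjusted p = 0.0269). In that comparison 8.98% of all tested genes were called and 5.13% rose. The 40S protein sta and the ribosome-bound scaffold Rack1, ribosomal genes whose symbols fall outside the naming rule, gave 0 calls in the 6 comparisons by limma or limma-voom, with 0 at an unadjusted p below 0.05, and both were lowest in starved_naive replicate 3 (299 and 271 RPKM). Of 5 tested genes that respond to loss of ribosomal proteins, 0 were called in any comparison with the deposited scaling by limma or limma-voom, with 0 or 1 at an unadjusted p below 0.05. The 71 mitochondrial ribosomal protein genes, which serve the ribosome of another compartment, gave 10 calls downward and 1 upward (mRpS9) in starved_trained_1hr against naive heads, where 3.85% of all genes fell (median -0.27, against 0.041 for the cytosolic genes). With equal summed RPKM that became 0 downward and 5 upward (median 0.018), where 19.6% of all tested genes rose. In the other 5 comparisons 0 mitochondrial ribosomal protein genes were called with the deposited scaling by limma or limma-voom, with 3 to 10 at an unadjusted p below 0.05.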

How the data were processed

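Polyadenylated RNA of single heads was sequenced from non-stranded libraries. The deposited table holds 1 RPKM value per gene and head, which the authors made from uniquely mapped reads. The submitters' processing notes name CASAVA 1.8.2, TopHat2 2.0.13, edgeR 3.18.1 and the genome build dm6, with no role or order given, and the published methods describe these data in one place with TopHat2, dm6 and edgeR and in another with an older aligner and build. The values are relative to a library size per head that equalled 0.813 to 1.13 times the reads on genes. Whole reads were recovered from the RPKM steps for 17212 of 17212 genes above 0 (100% of values whole, tolerance 0.001 reads), and the implied length equalled the exon sum of Ensembl BDGP6.54 (release 115) for 16494. Of the identifiers, 17252 matched a current symbol and 307 did not. Locations come from that annotation.

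The 10501 genes at 1 RPKM or more in at least 5 of 21 heads were log2-transformed after adding 1 and tested by limma (version 3.58.1, under R version 4.3.3; lmFit, eBayes with trend), with 1 mean per group, all 21 heads in 1 fit and no covariate. A fold change is on the log2(RPKM + 1) scale, which understates the change of low genes. P-values are two-sided and were adjusted by Benjamini-Hochberg over all tested genes at a threshold of 0.05. Totals per head were compared by an exact permutation test, adjusted over 6 comparisons. RPKM takes no count test, so limma-voom on the recovered reads served as an alternative; over all genes it called 79 in starved_naive against naive heads and 659 in starved_trained_4hr against starved_naive heads, against 159 and 669. The other alternatives were scalings of the heads, filters, a pseudocount of 0.1, variance models, a fit of the 2 groups alone, the replicate number as a block and each head left out. Plots used matplotlib 3.10.9, tables pandas 2.3.3, and permutation tests scipy 1.17.1 under Python 3.11.15, and the fit was tested on simulated data. Groups came from the labels.

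Members named are those past the threshold with the 3 highest and 3 lowest fold changes per comparison, else the 2 with the lowest p, the 3 highest and lowest by level, duplicated pairs, and up to 3 genes per list by p. RpL12, RpL32, Cp36, osk, Vm26Ab, bam, Yp1 and members called under another scaling were named after their values were seen. The members and lists were chosen with earlier results of these data known.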

Additional observations from a re-analysis of the deposited data

Results flagged for a closer look

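Within each group, the highest and lowest head of 19 members named in the text and of 4 sums or ratios over the members or all genes was compared with the nearest other head of that group by Dixon's ratio of that gap to the whole range. This was done for 92 groups of values, of which chance would mark about 1 in 20, and 5 stood out. RpL34a was at 125 RPKM in starved_trained_1hr replicate 3, below the next head of that group at 155 RPKM. RpS5a was at 1005 RPKM in naive replicate 2, where the next naive head had 569 RPKM. Its ovary-enriched copy RpS5b was at 46.9 RPKM in starved_trained_4hr replicate 6, with the next head at 1.29 RPKM, and at 5.92 RPKM in starved_trained_1hr replicate 2, with the next head at 0.496 RPKM. RpS19b was at 5.30 RPKM in naive replicate 2, against 0.0862 RPKM in the next naive head. That head also had the highest level of bam, a germline differentiation gene, at 0.576 RPKM, with 0.50 RPKM in starved_trained_4hr replicate 6 and at most 0.117 RPKM in the other heads.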

How the results depend on the processing

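P-values rest on 5 or 6 flies a group, so that small shared shifts may be missed. The alternatives chosen after seeing the data were the total without small structural RNA genes, leaving out starved_naive replicate 3 together with naive replicate 2, leaving out starved_naive replicate 3 under another scaling, and all alternatives for the assembly and RNA polymerase I lists. The cause of the changes below was not tested, except that fits without a head hold fewer samples. With equal summed RPKM, 33 members were called in starved_trained_4hr and 16 in starved_trained_1hr against naive heads (medians 0.39 and 0.35), with 11 and 5 when small structural RNA genes were left out (medians 0.31 and 0.27), and 69 and 58 when starved_naive replicate 3 was left out (medians 0.39 and 0.35, and 0.19 for starved_naive against naive, where RpL15 turned to 0.085). Equal reads on genes gave 2 at 4 h (median 0.24). No filter, and leaving out starved_naive replicate 3 with naive replicate 2, gave 0 at 4 h against naive heads. A fit of the 2 groups alone gave 0 in starved_trained_1hr against naive and 0 in starved_trained_4hr against starved_naive heads.

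The counts over fits leaving out 1 head ran from 0 to 1 in each of the 3 comparisons with naive heads and from 0 to 2 in starved_trained_4hr against starved_naive heads. The difference in summed RPKM ran from -165253 to -82231 in starved_trained_4hr against naive heads, where leaving out 1 head raised the smallest adjusted p to 0.0857, from -16558 to 22667 in starved_trained_1hr against starved_naive heads and from -33969 to 5256 in starved_trained_4hr against starved_naive heads.

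The RNA polymerase I count was 2 to 8, lowest with the 2 groups alone. Same-numbered heads of different groups deviated together no more than others (median r -0.026 over 27 pairs, 0.0013 over 138 other pairs), so the numbers do not pair the heads. With the replicate number as a block, 0 members were called in starved_trained_4hr against naive heads (RpL24-like 0.42, limma adjusted p = 0.101), and the counts of the other 5 comparisons did not change.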
